A study of Mus musculus with 1536 samples.

Results

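The stress-high cells are 85 adult lymphatic endothelial cells (LECs), 10.1% of all adult LECs in the matrix. They were chosen by measured values: the mean level of 5 genes, *Cdkn1a*, *Hmox1*, *Rcan1*, *Adamts4* and *Bcl2l11*, was taken in every cell, and the 85 cells with the highest mean were set against all other adult cells. LECs were sorted as CD31+ PDPN+ cells from the nasopharyngeal mucosa of 30 C57BL/6 mice of both sexes (aged 10 to 12 weeks), whose tissue was pooled and digested with enzymes at 37 °C for 30 min before sorting. Libraries were made by Smart-seq3, in which the full-length transcripts of single cells are amplified in the wells of plates. Labels and column names give neither mouse, sex nor plate, so the cells are 1 sample. For this reason no p-value is given, SDs describe the spread over cells, and shares are given with their exact (Clopper–Pearson) 95% interval, which covers counting error alone.

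All 5 genes respond to cell stress or injury. *Cdkn1a* encodes a cyclin-dependent kinase inhibitor that halts the cell cycle and is a classical target of p53, *Hmox1* encodes haem oxygenase, which degrades haem under oxidative stress, and *Rcan1* encodes a feedback inhibitor of calcineurin. *Adamts4* encodes a secreted protease that cleaves aggrecan and versican, and *Bcl2l11* encodes BIM, which promotes apoptosis by binding anti-apoptotic BCL2 proteins. Many genes of this kind are switched on within minutes to hours, by cytokines, growth factors, mechanical strain and also by the handling of tissue.

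Levels are the deposited values, the natural log of 1 plus reads per 10000, called ln values below. The score, the mean ln value of the 5 genes, ran from 1.43 to 2.34 in the stress-high cells (median 1.65) and from 0 to 1.43 in the other cells (median 0.489). The last cells inside the limit had scores of 1.434 and 1.437 and the first outside had 1.431 and 1.422. Of the stress-high cells, 21 lay within 0.1 above the limit, and 22 other cells lay within 0.1 below it. The scores show no gap at the limit, so these cells are the upper end of a range and are not called a separate cell type.

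**Figure D1:**
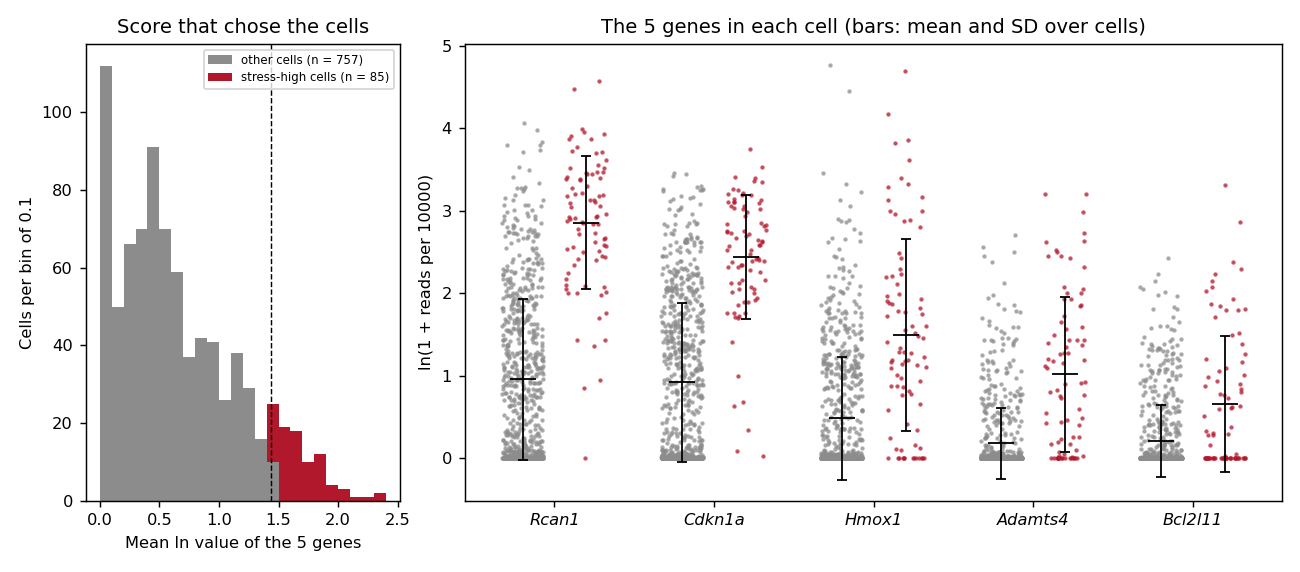
Left, the number of cells per bin of 0.1 of the score (mean ln value of the 5 genes), stacked, with the limit as a dashed line. Right, the ln value of each of the 5 genes in every cell (points), with the mean and SD over the other cells (grey) and the 85 stress-high cells (red). The score has 1 continuous range, and for every gene the points of both groups overlap.

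The 5 genes chose the cells, so their levels are given as a description. *Rcan1* (chromosome 16 of GRCm38, 92391953 to 92470867, minus strand) was found in 84 of 85 stress-high cells. Its lowest, median and highest ln values there were 0, 2.92 and 4.57, with a mean of 2.85 ± 0.806 (SD, n = 85). The other cells had a mean of 0.95 ± 0.981 and reached 4.06. *Cdkn1a* (chromosome 17, 29090976 to 29100727, plus strand) was found in all 85, with values of 0.03, 2.57 and 3.75 and a mean of 2.44 ± 0.753, against 0.92 ± 0.963. These were the genes with the largest differences in the score, 1.90 for *Rcan1* and 1.52 for *Cdkn1a*, and they took most part in the choice of cells. *Hmox1* (chromosome 8, 75093621 to 75100589, plus strand) was found in 72 stress-high cells at a mean of 1.50 ± 1.16, against 0.48 ± 0.747. *Adamts4* (chromosome 1, 171250421 to 171260637, plus strand) was found in 67 cells at 1.02 ± 0.942, against 0.18 ± 0.428. *Bcl2l11* (chromosome 2, 128126038 to 128162547, plus strand) was found in 47 cells at 0.66 ± 0.828, against 0.21 ± 0.432. The cells were not uniform: 29 had reads of all 5 genes, 42 of 4 and 14 of only 3, and 53 of the other cells also had reads of all 5.

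To see each gene where it had not helped in the choice, 85 cells were chosen again on the other 4 genes. These cells were mostly the same, with 58 to 72 of the 85 shared. The left-out gene was then higher than in the rest by 0.97 for *Rcan1* (2.01 ± 1.27 against 1.05 ± 1.06), 0.94 for *Cdkn1a*, 0.47 for *Adamts4* and 0.42 for *Hmox1*. For *Bcl2l11* the difference was 0.11. This gene was found in 41.2% of the chosen cells (30.6 to 52.4) and 35.9% of the rest (32.5 to 39.5), intervals that overlap. The genes of the score were put together with earlier results of these data known, so the left-out differences and shares are a description and no test. Of both further markers proposed for these cells, *Jmjd1c*, a member of the histone demethylase family of JmjC proteins, was at 1.37 ± 0.668 against 0.77 ± 0.698 and was found in 80 cells. *Plekhg2*, an exchange factor for small GTPases, was at 0.67 ± 0.951 against 0.27 ± 0.541 and was found in 45 stress-high cells (52.9%, 41.8 to 63.9) and in 39.1% of the others (35.6 to 42.7). The difference of *Plekhg2*, 0.40, is below the limit of 0.5 that is used for all genes below. Both markers were also proposed with earlier results of these data known, so their levels are no test either.

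Sequencing depth was close in both groups. Median reads per cell were 346915 in the stress-high cells and 351211 in the others, and median genes found were 4313 and 4176. Mitochondrial reads made up a median of 1.44% in the stress-high cells and 1.82% in the others, and 23 of 85 stress-high cells lay above the median of the others.

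The stress-high cells carried the transcripts of LECs. *Prox1*, the transcription factor that sets lymphatic identity, was found in 84 of 85 cells at 1.81 ± 0.600, against 1.62 ± 0.708, and *Flt4*, the receptor of lymphatic growth factors, in all 85 at 2.32 ± 0.554, against 2.46 ± 0.632. *Mmrn1*, *Pecam1* and *Cdh5* were found in 85, 84 and 84 cells. All 10 LEC markers passed the filter on low values, and the differences of 8 of them lay below 0 (median −0.11, lowest *Sox18* at −0.45). The 10 pan-endothelial markers had a median of −0.10, also with 8 below 0. No gene of either list differed by 0.5.

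Markers of immune, fibroblast, epithelial, mural, Schwann and red blood cells were at or near 0 in most cells, while some markers of blood endothelium were not. *Ptprc* and *Cd3e*, which define leukocytes and T cells, were at 0 in all adult cells, but 7 of 85 stress-high cells (8.24%, 3.38 to 16.2) and 14 of the others (1.85%, 1.01 to 3.08) had reads of at least 2 of the 5 immune markers, such as *Cd68* (18 stress-high cells, 21.2%, against 15.1%). The summed level of the immune markers ran from 0 to 10.4 reads per 10000 in the stress-high cells and from 0 to 262.2 in the others, with a median of 0 in both. At least 2 fibroblast markers were found in 3 stress-high cells, and at least 2 epithelial, mural, Schwann or red blood cell markers in 0 of 85, which allows a share of up to 3.53% by the limit of 3 counts (exact upper bound 4.25%). At least 2 blood endothelial markers were found in 63 stress-high cells (74.1%, 63.5 to 83.02) and 75.6% of the others, with median sums of 5.13 and 7.01 reads per 10000. These were mostly *Emcn* and *Plvap*, found in 80 and 65 stress-high cells, whereas *Flt1*, *Sox17* and *Nostrin* were found in 1, 4 and 0. Without the cells that had 2 immune, fibroblast, epithelial, mural or Schwann markers, 76 stress-high cells were left, and the numbers of genes that differed stayed at 54 and 1.

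Transcripts of the sex chromosomes were spread unevenly. *Xist*, which is made from the inactive X chromosome of female cells, was found without any of 4 Y-linked genes (*Ddx3y*, *Eif2s3y*, *Uty* and *Kdm5d*) in 3 of 85 stress-high cells (3.53%, 0.734 to 9.97) and in 21.8% of the others (18.9 to 24.9). A Y-linked gene without *Xist* was found in 64 stress-high cells (75.3%, 64.7 to 84.01) and in 54.95% of the others (51.3 to 58.5). Counted the other way, 13.3% of the 480 cells with only Y-linked reads were stress-high (10.4 to 16.7), and 1.79% of the cells with only *Xist* (0.370 to 5.13). Their medians of total reads were 441014 and 290954. Neither signal was found in 17 stress-high cells and 16.5% of the others, a class of shallow cells with a median of 87119 reads. Along the whole range of the score, cells with only *Xist* made up 32.9% of the lowest decile and 3.57% of the highest. The labels do not give the sex, mouse or plate of a cell, so these cannot be told apart, and values within the cells that had only Y-linked reads are given below for the numbers of genes, 4 leading genes, the immediate early and JAK–STAT3 lists, *Txnip* and *Sox18*.

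**Figure D2:**
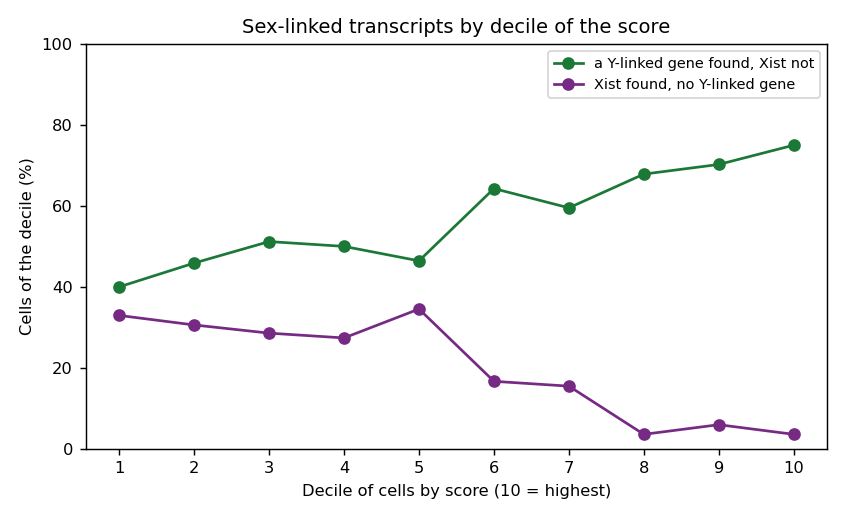
Share of cells (%) in each decile of the score in which a Y-linked gene but not *Xist* (green) or *Xist* but no Y-linked gene (purple) was found. The share with only *Xist* is 32.9% in the lowest decile and 3.57% in the highest, and the share with only Y-linked genes 45.9% in the second decile and 70.2% in the ninth.

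Outside the 5 genes, 5789 genes passed the filter on low values, detection in 30% of the cells of either group. Of these, 54 genes (0.933%) had a mean ln value higher by at least 0.5 in the stress-high cells, a 1.65-fold difference on the scale of 1 plus reads per 10000, and 1 gene (0.0173%) was lower by as much. The median difference over all 5789 genes was 0.00, with 2885 above 0 and 2904 below. Counts of higher genes in the lists below are to be read beside the 0.933%, and counts above 0 beside these. All genes came from the cells that the score chose, so these differences describe the cells and are no test. Differences of ln values understate those of low genes. Within the cells with only Y-linked reads (64 of them stress-high) there were 45 higher genes, 44 of them among the 54, and 1 lower gene.

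The 15 leading genes were early-response transcription factors, feedback inhibitors of signalling and a few genes of the cell's shape and nucleus. *Socs3*, the feedback inhibitor of JAK–STAT signalling, had the largest difference, 1.38. Its lowest, median and highest ln values were 1.85, 3.81 and 5.02 in the stress-high cells and 0, 2.50 and 5.14 in the others, and 79 of 85 stress-high cells lay above the median of the others. The groups overlap at the top, where 21 of 85 stress-high cells exceeded the level reached by the highest decile of the others, and low values are lacking in the stress-high cells. *Atf3*, a stress-induced transcription factor of the ATF family, followed with 1.34 (values 0.55, 3.20 and 4.77, mean 3.23 ± 0.933, against 1.89 ± 1.57). *Sbno2*, which is induced by interleukin signals through STAT3, was higher by 1.23 (2.52 ± 0.888 against 1.29 ± 1.07) and *Irf1*, a transcription factor of interferon and inflammatory signalling, by 1.15 (2.38 ± 1.05 against 1.23 ± 1.11). *Sertad1*, a regulator of cyclin-dependent kinase 4 and E2F factors, was higher by 1.05 and was found in all 85 stress-high cells and 85.1% of the others. The exons of *Irf1* overlap a transcript on the other strand, and whether the counting used strand is not given in the sources used here.

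Next came *Neat1* (0.97), the nuclear RNA that builds paraspeckles, *Rnd1* (0.96), a GTPase that loosens the actin cytoskeleton, and *Fosb* (0.95), *Junb* (0.94) and *Nr4a1* (0.92), immediate early transcription factors. *Junb* ran from 2.20 to 4.76 in the stress-high cells and from 0 to 5.22 in the others. *Nfkbia* (0.86), the inhibitor of NF-kB, *Emp1* (0.85), a membrane protein of growth-factor response, *Lmna* (0.85), which encodes the nuclear lamins A and C, *Bcr* (0.83), a regulator of small GTPases, and *Trib1* (0.82), a pseudokinase that directs protein degradation, completed the 15. The 15 genes were picked by their differences in these same cells, so counts of them per cell are a description and no test. Of 85 stress-high cells, 72 (84.7%) had at least 12 of the 15 genes above the median of the other cells, and none had fewer than 9. At least 12 were above that median in 24.4% of the others. Under 22 alternative choices of cells, depth and scale, all 15 stayed higher, and 13 of them by at least 0.5 each time; *Junb* was below 0.5 in 2 (lowest 0.41) and *Emp1* in 1 (lowest 0.49). Within the cells with only Y-linked reads, *Socs3* was higher by 1.13, *Atf3* by 1.22, *Sbno2* by 1.04 and *Irf1* by 0.94.

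**Figure D3:**
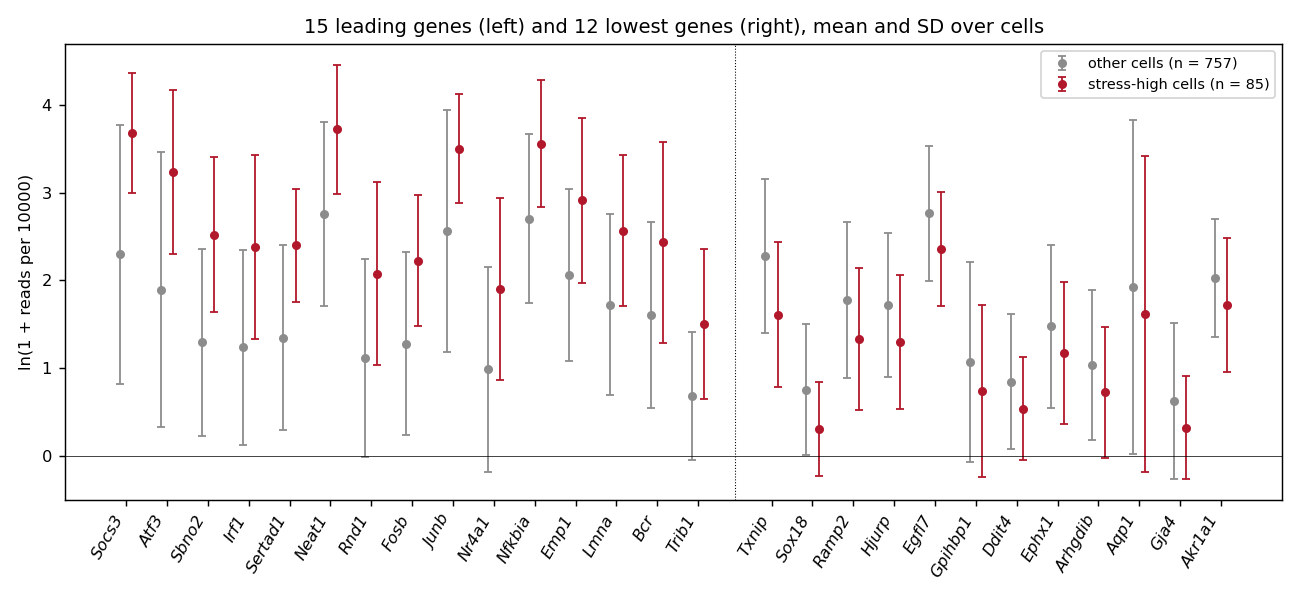
Mean ln value and SD over cells of the 15 leading genes (left of the dotted line) and the 12 lowest genes (right) in the 85 stress-high cells (red) and the other cells (grey). The SDs of both groups overlap for every gene, and *Socs3* and *Txnip* have the largest differences, 1.38 and −0.67.

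The leading genes were higher in the highest decile of the score than in the lowest and were not confined to the stress-high cells, but not all rose through the whole range. *Emp1* was at 1.68 in the lowest decile, 1.65 in the fourth and 2.92 in the highest, and *Bcr* at 1.25 in the lowest, 1.52 in the sixth and 2.42 in the highest. *Socs3* had a mean of 1.20 ± 1.24 in the lowest decile of cells, 2.42 ± 1.42 in the fifth, 3.48 ± 0.850 in the ninth and 3.68 ± 0.690 in the highest. *Atf3* went from 0.63 ± 0.978 in the lowest decile to 3.10 ± 1.11 in the ninth and 3.23 ± 0.937 in the highest. *Junb* was at 3.54 ± 0.751 in the ninth decile and 3.51 ± 0.615 in the highest, so the last step was less than the spread of either. For *Socs3*, *Atf3* and *Junb* the SD over cells was smallest in the highest decile.

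**Figure D4:**
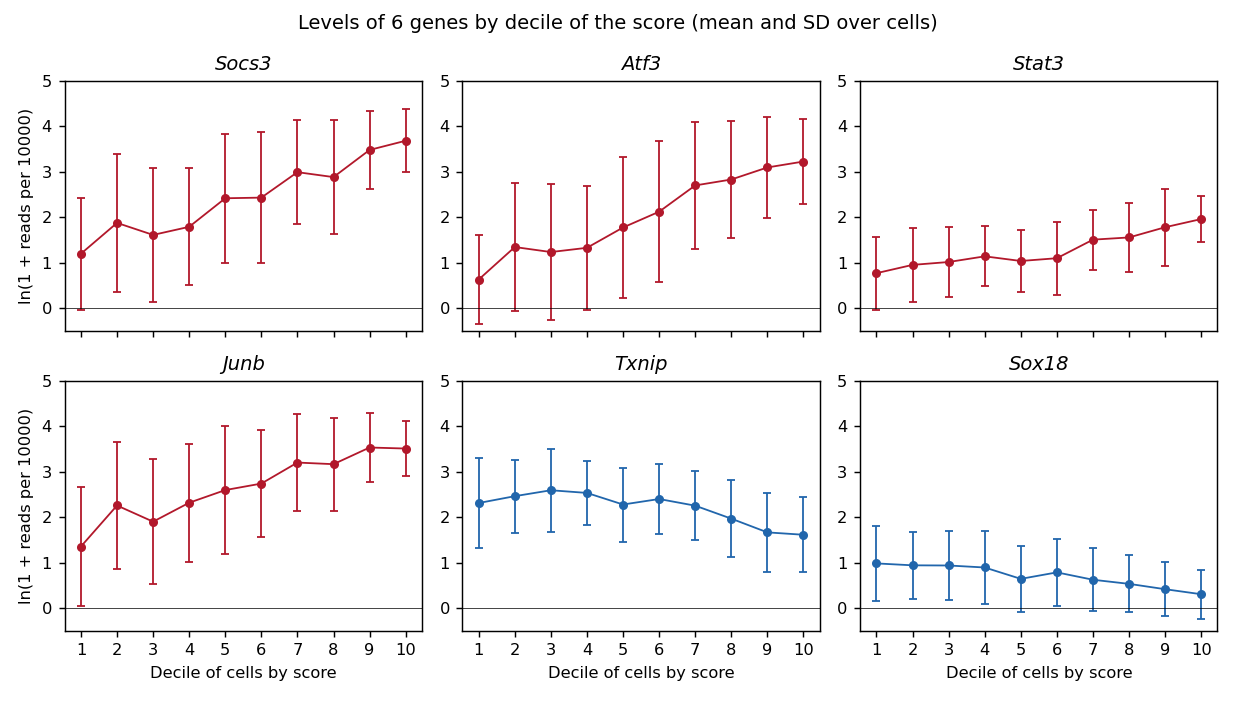
Mean ln value and SD over cells of 6 genes in each decile of the cells ordered by the score (10 is the highest, 84 cells, all stress-high). *Socs3*, *Atf3*, *Stat3* and *Junb* are higher toward the right, and *Txnip* (2.31 in the lowest decile, 1.62 in the highest) and *Sox18* (0.98 and 0.31) lower.

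*Socs3* and *Sbno2* are targets of STAT3, so a list of 25 genes of JAK–STAT3 signalling was drawn up after these values had been seen. Of its 21 genes that passed the filter, 19 lay above 0 (median 0.13) and 3 were higher by 0.5: *Socs3*, *Sbno2* and *Stat3* itself. *Socs3* and *Sbno2* had prompted the list, so their place among the 3 was fixed beforehand. *Stat3* ran from 0.36 to 3.09 (median 2.03) in the stress-high cells and from 0 to 4.22 (median 1.24) in the others, a difference of 0.76, and 79 of 85 stress-high cells lay above that median. Within the cells with only Y-linked reads, 3 members of the list were higher. The receptors and kinases upstream differed less: *Il6st*, the shared receptor chain of the interleukin-6 family, by 0.07, *Osmr* by 0.09, *Jak1* by 0.28 and *Jak2* by 0.20. *Il6* itself was found in 16 stress-high cells (18.8%) and 8.7% of the others, and *Lif* in none of the 85.

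The promoters of *Socs3*, *Sbno2* and *Irf1* are shown because they hold the motif given next. The letters TTCNNNGAA, the same on both strands, are the core that STAT dimers bind, and this search was also added after the values had been seen. Sequences are from RefSeq on GRCm38.p6, the 250 bases before the start of transcription, 5′ to 3′ on the strand of the gene, with the motif in capitals.
Socs3, chr11:117969367-117969616, minus strand: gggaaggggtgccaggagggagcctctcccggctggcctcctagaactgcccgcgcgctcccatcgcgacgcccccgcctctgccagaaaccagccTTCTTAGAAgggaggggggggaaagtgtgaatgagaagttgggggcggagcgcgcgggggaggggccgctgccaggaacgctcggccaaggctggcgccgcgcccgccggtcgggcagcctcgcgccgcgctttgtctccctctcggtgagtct
Sbno2, chr10:80102703-80102952, minus strand: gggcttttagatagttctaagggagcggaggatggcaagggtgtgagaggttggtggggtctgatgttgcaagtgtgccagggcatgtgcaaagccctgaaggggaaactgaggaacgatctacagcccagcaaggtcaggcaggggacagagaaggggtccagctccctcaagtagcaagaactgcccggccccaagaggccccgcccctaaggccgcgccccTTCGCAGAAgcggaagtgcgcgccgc
Irf1, chr11:53769764-53770013, plus strand: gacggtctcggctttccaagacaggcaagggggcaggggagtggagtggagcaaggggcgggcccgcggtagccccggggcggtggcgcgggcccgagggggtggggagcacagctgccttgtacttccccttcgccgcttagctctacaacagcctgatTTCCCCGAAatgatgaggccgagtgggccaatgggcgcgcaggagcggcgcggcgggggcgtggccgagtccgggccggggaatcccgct
The motif begins at base 97 of the window shown in *Socs3*, and 26 and 90 bases before the start in *Sbno2* and *Irf1*, for the first start listed where a gene has several. Promoters were found in the table for 41 of the 54 higher genes, and 10 of these (24.4%) hold the motif in the window from 250 bases before to 50 after a start: *Apold1*, *Csrnp1*, *Emp1*, *Fgl2*, *Icam1*, *Irf1*, *Sbno2*, *Socs3*, *Tgif1* and *Zfp36*. The share was 7.76% for the 4431 genes that passed the filter and have a promoter there, and 9.55% for all 27025 genes with a promoter. *Atf3* and *Sertad1*, also among the leading genes, do not hold it. Of the 3 genes of the score that have a promoter there, 0 hold it. The 10 genes include *Socs3* and *Sbno2*, which prompted the search, so their share is no test. A match of letters is a description and does not show that a factor binds.

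Immediate early genes were the list with the most higher genes by number (by share, the plasminogen activators and their inhibitors had 2 of 4). Of 33 genes 30 passed the filter, 28 lay above 0 (median 0.30, against 0.00 over all genes) and 10 were higher by 0.5: *Atf3*, *Btg2*, *Csrnp1*, *Egr1*, *Fosb*, *Fosl2*, *Junb*, *Mafk*, *Nr4a1* and *Zfp36*. *Zfp36*, which degrades mRNAs of cytokines, was higher by 0.78 (2.89 ± 0.786 against 2.10 ± 1.40), and *Egr1* by 0.77 (2.56 ± 0.887 against 1.79 ± 1.30). Members of the same family were not alike. *Fos* was at 3.74 ± 1.13 in the stress-high cells and 3.59 ± 1.75 in the others, a difference of 0.16, and only 32 of 85 stress-high cells lay above the median of the others. *Jun* differed by 0.50 (2.80 ± 0.925 against 2.30 ± 1.34), just under the limit, *Klf4* by 0.49, *Klf2* by 0.19 and *Klf6* by −0.16. Genes of this list are also known to answer to the enzymatic digestion that all these cells went through, whose part was not tested. Within the cells with only Y-linked reads, 10 members of the list were higher.

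AP-1, the dimer of FOS and JUN proteins, binds the letters TGANTCA, and the promoter of *Rcan1* shows such a site. *Rcan1* has an upstream and a downstream start, and the window of the downstream start, which makes the inducible isoform, is shown with TGANTCA and TGACGTCA (the cyclic AMP response element, CRE) in capitals.
Rcan1, downstream start, GRCm38.p6, chr16:92400079-92400328, minus strand: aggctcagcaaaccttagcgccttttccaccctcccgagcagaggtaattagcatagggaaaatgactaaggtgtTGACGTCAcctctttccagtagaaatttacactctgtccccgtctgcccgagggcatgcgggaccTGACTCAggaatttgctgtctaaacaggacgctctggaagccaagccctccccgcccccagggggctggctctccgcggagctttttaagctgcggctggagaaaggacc
The CRE begins at base 76 of the window and the AP-1 motif 110 bases before the start, and the short NFAT core TGGAAA is on the other strand at bases 24 and 88. The window of the upstream start holds none of these motifs. On both strands, TGANTCA was in a promoter of 7 of the 41 higher genes that have one (17.1%). These genes were *Csrnp1*, *Emp1*, *Fgl2*, *Hspa5*, *Lmna*, *Nts* and *Plaur*. The share was 5.96% for the genes that passed the filter and 8.97% for all genes with a promoter. TGACGTCA was found for 3 higher genes (7.32%, against 3.84% and 2.03%) and TGGAAA for 12 (29.3%, against 19.3% and 23.9%).

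Genes of NF-kB signalling lay to the same side. Of 26 genes 10 passed the filter, all 10 lay above 0 (median 0.22), and *Irf1*, *Nfkbia* and *Icam1* were higher by 0.5. *Icam1*, the adhesion molecule for leukocytes, was at 1.64 ± 1.24 against 0.92 ± 1.05, with 73 of 85 cells positive and 64 above the median of the others. *Nfkbiz*, a nuclear regulator of the pathway, was at 1.54 ± 0.774 against 1.06 ± 0.874. Interferon genes did not follow: of 20 genes 11 passed, 9 lay below 0 (median −0.04) and none differed by 0.5, with *Isg15* at 0.93 ± 0.999 against 0.72 ± 0.920 and *Bst2* at 1.49 ± 0.824 against 1.76 ± 0.852.

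The pathways that the 5 genes are best known for had median differences near 0, and at most 1 gene of each list was higher by 0.5. In lists this short, 1 gene is already a larger share than the 0.933% over all genes. Of 24 genes of the p53 list, which holds *Trp53* and *Mdm4* beside targets, 8 passed the filter, with a median difference of 0.00. *Btg2*, an antiproliferative gene that is also an immediate early gene, was the 1 higher by 0.5 (1.82 ± 0.855 against 1.19 ± 0.986). *Mdm2*, the p53 target that feeds back on p53, was at 0.44 ± 0.559 against 0.34 ± 0.529, *Bax* differed by −0.03 and *Trp53* itself by −0.05. NRF2 is the factor that induces *Hmox1* in oxidative stress, and its list holds *Nfe2l2* (NRF2 itself), *Keap1* and *Bach1* beside targets. Of its 22 genes 13 passed (median 0.05), and *Sqstm1*, an autophagy receptor, was higher by 0.64. *Txnrd1*, thioredoxin reductase, was higher by 0.38, below the limit, and *Nqo1*, a defining target, by 0.02. *Bach1*, which represses *Hmox1*, was at 0.51 ± 0.516 against 0.26 ± 0.430. In haem and iron handling none of 6 genes differed by 0.5, and the ferritin chains *Fth1* and *Ftl1* differed by 0.12 and 0.09.

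The partners of *Rcan1* and *Bcl2l11* gave a like picture. In the calcineurin–NFAT list none of 6 genes that passed differed by 0.5. *Nfatc1*, a transcription factor that drives the inducible isoform of *Rcan1*, was at 1.12 ± 0.765 against 0.76 ± 0.659, and *Ppp3ca*, the catalytic subunit of calcineurin, differed by −0.03. In the BCL2 family, *Mcl1*, an anti-apoptotic protein bound by BIM, was the 1 of 7 genes higher by 0.5: it was at 1.81 ± 0.660 against 1.26 ± 0.688, and 69 of 85 stress-high cells lay above the median of the others. No gene of the caspase list differed by 0.5, with *Apaf1*, the apoptosome scaffold, highest at 0.28. Of 8 genes that passed in the FOXO list, which holds *Foxo1*, *Foxo3* and *Foxo4* beside targets, *Trib1* was higher by 0.82 and *Txnip* lower by 0.67. The median was 0.04.

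Genes of the integrated stress response, which slows translation and raises ATF4, were split. Of 14 genes that passed, *Atf3*, *Ppp1r15a* and *Atf4* were higher by 0.5 and the median was 0.04. *Ppp1r15a*, the phosphatase subunit that ends the response, ran from 0.39 to 4.38 (mean 2.88 ± 0.865) against 2.07 ± 1.27, and *Atf4* was at 1.99 ± 0.583 against 1.36 ± 0.769. The amino acid and transport genes that ATF4 drives, such as *Asns*, *Chac1* and *Slc7a11*, did not pass the filter. In the unfolded protein response 1 of 16 genes was higher, *Hspa5*, the chaperone of the endoplasmic reticulum, at 2.34 ± 0.544 against 1.73 ± 0.826, with 74 of 85 cells above the median of the others, whereas *Xbp1* and *Pdia4* differed by −0.09 and −0.07. All 16 heat shock genes that passed lay above 0 (median 0.14) and none reached 0.5, with *Dnajb1* and *Dnaja1* highest at 0.50 and 0.48 and *Hspa1a* at 0.07.

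**Figure D5:**
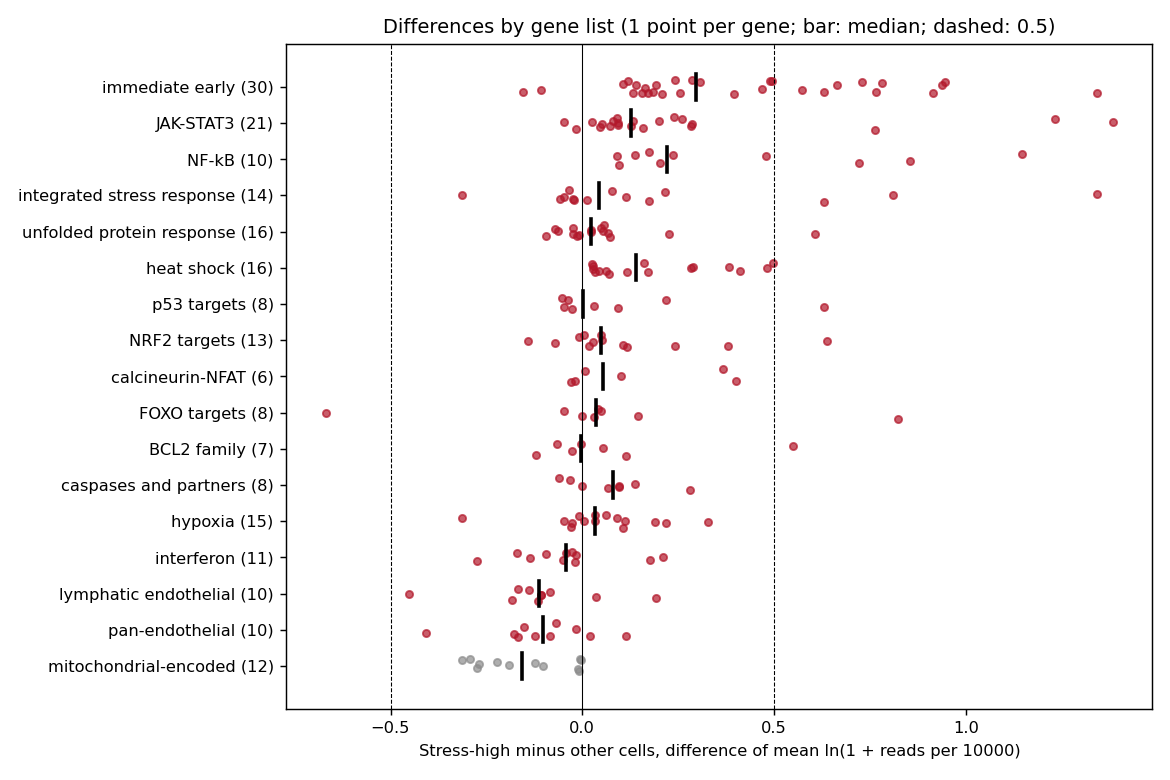
Difference of mean ln values (stress-high minus other cells) for each gene that passed the filter in 17 lists, with the median of each list as a black bar, the number of genes in brackets and dashed lines at 0.5 and −0.5. The lists of immediate early and NF-kB genes have medians of 0.30 and 0.22, and the 12 mitochondrial-encoded genes (grey) all lie below 0. The lists labelled as p53, NRF2 and FOXO targets also hold the factors themselves. The JAK–STAT3 list was drawn up after the values had been seen.

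Genes of the matrix and of cell shape were among the higher ones. *Adamts1*, the relative of *Adamts4* among matrix proteases, was at 1.84 ± 1.39 against 1.02 ± 1.24 and was found in 80 of 85 cells, the 1 of 6 genes of its list that differed by 0.5. *Plaur*, the urokinase receptor, was higher by 0.64 and *Plat*, tissue plasminogen activator, by 0.54. *Plat* was uneven: its median was 0.25 and its highest value 4.87 in the stress-high cells, and 23 of them lay above the highest decile of the others. *Tpm3*, an actin-binding tropomyosin, was steady by comparison, from 1.97 to 4.35 (mean 3.16 ± 0.434, against 2.45 ± 0.707), and 79 cells lay above the median of the others. Of 10 histone demethylase genes, *Kdm6b* was the 1 higher by 0.5, at 1.10 ± 0.655 against 0.52 ± 0.559. Of the genes that act with *Cdkn1a* in the G1 phase none differed by 0.5, with *Cdk4* at −0.20 and *Ccnd1* at −0.08, nor did any of the 4 cell cycle genes that passed (*Pcna* at 0.30).

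The 1 gene lower by 0.5 was *Txnip*, the inhibitor of thioredoxin and of glucose uptake. Its lowest, median and highest ln values were 0, 1.58 and 3.53 in the stress-high cells (mean 1.61 ± 0.822) and 0, 2.41 and 4.14 in the others (2.28 ± 0.878), and 19 of 85 stress-high cells lay above the median of the others. Within the cells with only Y-linked reads it was lower by 0.57 (difference −0.57). Under the 22 alternatives the difference of *Txnip* ran from −0.87 to −0.36, and it was lower by at least 0.5 in 20 of them. *Sox18*, a transcription factor that acts before *Prox1* in lymphatic development, was found in 39 stress-high cells (45.9%, 35.02 to 57.04) and 70.7% of the others (67.3 to 73.9), at 0.30 ± 0.533 against 0.75 ± 0.747, and its difference within the cells with only Y-linked reads was −0.38. *Ramp2*, part of the adrenomedullin receptor of LECs, was at 1.33 ± 0.813 against 1.77 ± 0.886, *Egfl7*, a secreted endothelial factor, at 2.36 ± 0.646 against 2.76 ± 0.773, and *Hjurp*, a histone chaperone of centromeres, at 1.30 ± 0.761 against 1.72 ± 0.825. *Ramp2* and *Egfl7* share exons with neighbouring genes. The other 7 of the 12 lowest genes were *Gpihbp1*, *Ddit4*, *Ephx1*, *Arhgdib*, *Aqp1*, *Gja4* and *Akr1a1*, with differences of −0.33 to −0.31.

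The 12 protein genes of mitochondrial DNA that passed the filter all lay below 0 (median −0.16), led by *mt-Cytb* at 3.34 ± 0.573 against 3.66 ± 0.593. Of 79 ribosomal protein genes none differed by 0.5 and the median was 0.01. *Malat1*, the other abundant nuclear RNA beside *Neat1*, differed by −0.02.

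The stress-high cells were spread over the LEC subtypes. *Lyve1*, a marker of capillary LECs, was at an ln value of at least 1 in 41 of 85 stress-high cells (48.2%, 37.3 to 59.3) and 48.3% of the others (44.7 to 51.98). The shares with *Stab2* at 1 or above were 30.6% (21.05 to 41.5) and 31.3%, with *Igfbp5* 34.1% (24.2 to 45.2) and 38.04%, with *Fndc1* 12.9% (6.64 to 21.98) and 17.3%, and with *Cldn11*, a valve gene, 21.2% (13.1 to 31.4) and 17.6%. These intervals hold the share of the other cells. *Gja4*, a connexin of lymphatic valves, was at 1 or above in 11 stress-high cells (12.9%, 6.64 to 21.98) and 30.3% of the others (26.995 to 33.7), and it was one of the genes higher in the cells with only *Xist* (0.99 ± 1.04) than in those with only Y-linked reads (0.45 ± 0.753). Among the cells with *Lyve1* at 1 or above 76 genes were higher and 2 lower, and among those with less, 52 and 2. The 2 lower genes were *Gpihbp1* and *Txnip* in the cells at 1 or above. In those with less they were *Aqp1* and *Sox18*, and *Txnip* did not reach the limit.

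The genes that set the stress-high cells apart also differed between cells with only Y-linked reads and cells with only *Xist*, stress-high cells included. *Cdkn1a* was at 1.26 ± 1.06 and 0.46 ± 0.719, *Rcan1* at 1.28 ± 1.15 and 0.67 ± 0.771, and *Hmox1* at 0.65 ± 0.918 and 0.53 ± 0.726. *Atf3* was at 2.27 ± 1.58 and 1.31 ± 1.39 and *Socs3* at 2.62 ± 1.44 and 1.92 ± 1.50. *Txnip* was at 2.12 ± 0.894 and 2.59 ± 0.825. All 15 leading genes were higher and all 12 lowest genes lower in the cells with only Y-linked reads. The largest of these differences was that of *Atf3*, 0.96, and the smallest of the 15 that of *Bcr*, 0.19.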

How the data were processed

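Single LECs of adult nasopharyngeal mucosa were measured by Smart-seq3. Of 1536 wells listed, the matrix holds 842 cells, 85 stress-high and 757 others. Only *Xist* was found in 168 cells, only Y-linked genes in 480 (64 and 416 by group), both in 52 and neither in 142 (17 and 125). STAR (to mm10), featureCounts (Subread) and Seurat 4.1.0 were used by the authors, who dropped cells below 2000 genes or above 10% mitochondrial content. The values they deposited are on a natural log scale, ln(1 + reads per 10000): the exponential minus 1 summed to 10000 in every cell, although the methods name a log2 step. Whole reads were recovered for 100% of the values (within 0.01 reads), with totals per cell from 7433 to 3524358. They are reads, not molecules. Strand, multi-mapping and annotation are not given in the sources used here, and no doublet caller was run. The deposited values carry no correction for dissociation genes.

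The score and the differences of mean ln values were computed in Python 3.11.15 with NumPy 2.4.6, pandas 2.3.3 and SciPy 1.17.1, and figures drawn with Matplotlib 3.10.9. A gene was kept if detected in 30% of either group, and a difference of 0.5 was counted. The steps were tested on simulated data. Genes named were the 5 of the score, *Jmjd1c*, *Plekhg2*, the 15 leading and 12 lowest genes without mitochondrial, ribosomal and unnamed genes, up to 4 of each list by size of difference, and cell type markers. Further genes of the lists and among the 54 were named after their values had been seen. The members, gene lists and motifs were chosen with earlier results of these data known. Lists not described in the report had no gene that differed by 0.5 other than *Emp1* (feedback of MAPK signalling) and *Rnd1* (small GTPases). Coordinates come from GENCODE M21 on GRCm38, the build of the authors, and promoters from RefSeq. *Hmox1* and *Adamts4* have no entry there. Alternatives changed the score, the number of cells, depth, scale, threshold and filter. Leaving out replicates could not be done, since the cells are 1 sample.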

Additional observations from a re-analysis of the deposited data

How the results depend on the processing

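The number of genes that differed depended on the scale and the threshold more than on the choice of cells, and is given as a share of the genes that passed the filter (0.933% higher and 0.0173% lower in the report). With the ratio of mean reads and a pseudocount of 0.1 in place of the difference of ln values, 3.47% were higher and 3.47% lower, and with a pseudocount of 1, 52 genes were higher and 5 lower (0.0864%). A threshold of 0.3 gave 2.40% higher and 13 lower genes (0.225%), and a threshold of 1 gave 5 (0.0864%) and 0. Genes lower by 0.5 were 2 (0.0347%) with a score without *Adamts4*, 3 (0.0514%) without *Bcl2l11*, 2 (0.0334%) for the 42 cells with the highest score, 2 (0.0336%) in the cells with *Lyve1* of at least 1 and 2 (0.0343%) in those under 1. *Txnip* was among them each time except in the cells with *Lyve1* under 1. Among the cells with neither *Xist* nor a Y-linked gene (17 of them stress-high) there were 11 lower genes (0.218%), *Txnip* not among them, and 67 genes were higher. The causes were not tested. By number of genes, the other 39 counts stayed within 1.5 times those of the report. With a score without *Rcan1*, 41 genes were higher, 39 of them among the 54, and after thinning every cell to 20000 reads, which left out 4 stress-high cells, 60 were higher, 53 of them among the 54, which is 1.56% of the fewer genes that passed. No p53 target was higher without *Rcan1* in the score, and *Jmjd1c* was higher by 0.49 within the cells with only Y-linked reads. *Aqp1* had a difference of 0.04 under 1 of 22 alternatives (leaving aside the filters and thresholds, which do not alter a difference), and the other leading and lowest genes kept their direction under all 22. The alternatives by sex-linked reads alone and without the cells with the most reads were chosen after seeing the data. No paired analysis was possible because the cells are 1 sample with no replicates. In shallow cells, depth limits the shares of cells with a low gene.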

Other observations

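Further genes among the 54 belong to no list. *Slc10a6*, a transporter of steroid sulphates, was at 1.83 ± 1.07 in the stress-high cells against 1.09 ± 0.928 in the others, and 35 of 85 stress-high cells exceeded the level reached by the highest decile of the others. *Fgl2*, a secreted fibrinogen-like protein, was at 3.57 ± 0.959 against 2.91 ± 1.16. *Il17ra*, the shared chain of interleukin-17 receptors, was found in 63 stress-high cells (74.1%) and 61.2% of the others, at 1.10 ± 0.971 against 0.53 ± 0.684. *Rgs16* and *Gem*, which dampen G-protein signals and calcium channels, were higher by 0.67 and 0.66. *Nts*, the precursor of neurotensin, was uneven, with a median of 0.84 in the stress-high cells, which reached 4.87, and of 0.29 in the others, which reached 5.77. *Gdf15*, a secreted stress signal of the integrated stress response list and not among the 54, was found in 47 stress-high cells and was at 0.63 ± 1.09 against 0.52 ± 1.06, well within the spread over cells. These genes were named after their values had been seen.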
